A study of Homo sapiens with 6 samples.

Results

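The respiratory chain of the inner mitochondrial membrane passes electrons from NADH and succinate to oxygen through complexes I to IV, and the proton gradient built on the way drives ATP synthase, complex V. Most subunits are encoded in the nucleus, translated in the cytosol and imported, while a small set that includes the catalytic center of complex IV is encoded by mitochondrial DNA. Hepatocytes, the main cells of the liver, are rich in mitochondria.

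The nuclear-encoded subunits were examined here in cells labelled HepG2, a line from a human liver tumor, after exposure to cationic liposomes (CLs). They were chosen by gene symbol: NDUFA, NDUFB, NDUFC, NDUFS or NDUFV followed by digits for complex I, SDHA to SDHD for complex II, CYC1 and symbols starting with UQCR for complex III, COX4 to COX8 symbols for complex IV and ATP5 symbols for complex V. Symbols ending like a pseudogene (P, or P and digits) were dropped. The rule found 87 genes among 40205 symbols, with 37 in complex I, 4 in complex II, 10 in complex III, 17 in complex IV and 19 in complex V. Complex I includes NDUFA4, now regarded as a complex IV subunit. A few matches are no ordinary subunit: COX7A2L, a supercomplex factor, ATP5S and ATP5SL, the readthrough ATP5J2-PTCD1, and the near copies ATP5L2 and UQCRHL.

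RNA-seq counts came from a control group (Control-1 to Control-3) and a CLs-treated group (CLs-1 to CLs-3) of 3 samples each, all labelled as HepG2. The treated cells were exposed for 24 h to CLs, made of the cationic lipid DOTAP, cholesterol and a PEGylated lipid, at 120 μM by the sample labels. The study's text also gives this number in μg/ml. The control samples were labelled as control only, and nothing in the labels says whether the 3 samples of a group were separate cultures. The study's text calls the samples independent and does not say in what way. The p-values thus measure the spread between these samples, which may be technical.

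CLs-1 held the most counts, 13998946, and the other libraries held between 11418527 and 11784181. The study also reported the lowest mapped ratio of reads for CLs-1. The part of depth and mapping in the results was not tested. Of the 15047 genes with enough reads to be tested, 2 were called higher and 11 lower in the CLs-treated group by edgeR's quasi-likelihood test. A call needed a fold change over 1.5 or under 0.67 together with a Benjamini-Hochberg adjusted p-value under 0.05. The labelled cell type was checked first. The 15 hepatocyte markers, among them ALB, AFP, APOB and TTR, summed to only 5 to 19 counts in the control samples, 158 in CLs-1 and 3 each in CLs-2 and CLs-3, and TTR and APOH were at 0 in all 6 libraries. The defining transcripts of a hepatocyte line were thus at or near 0, while the keratins KRT8 and KRT18 were abundant. These markers go against the cell line label in all 6 libraries, and HepG2 is used below only as that label. The 5 epithelial markers summed to 36564 to 55767 counts in the control group and 20484 to 22687 in the CLs-treated group. EPCAM and CDH1, also on that list, had at most 9 counts in any library. The 7 stromal markers summed to 8225 to 12564 counts in the control group and 9052 to 13339 in the CLs-treated group, most of them from COL3A1. CLs-1 stood apart. It held 477 counts on the 4 red cell markers, against 0 to 4 in the other libraries, 466 on the 6 steroidogenic markers, against 11 to 32, and 1044 on the collagen gene COL1A2, against 0 to 2. The 5 leukocyte markers summed to 3 to 11 counts and the 5 muscle markers to 28 to 81. The part of these markers in the results was not tested. Many results that change without CLs-1 are given with and without it, but not all, so a value given once may also change. In such bulk samples, fewer cells of a type and less RNA per cell cannot be told apart.

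Promoter sequence is shown for 4 subunits because the transcription factor NRF1, ETS-family factors such as GABP and the factor YY1 are known to bind promoters of this gene set. RefSeq promoters (build GRCh38.p14, 250 bases before to 50 after the gene's start) were at hand for 68 of the 87 members. The last 100 bases before this RefSeq start are printed 5′ to 3′ on the gene's strand, with motif matches in capitals. The motifs, searched on both strands, were CGCNTGCGC for NRF1, CCGGAAG for ETS factors, AAGATGGC for YY1 and CCAAT for the CCAAT box. ATP5G1 (newer symbol ATP5MC1), at chr17:48892687-48892786 on the plus strand, and ATP5J (ATP5PF), at chr21:25734905-25735004 on the minus strand, encode complex V subunits. NDUFB3, at chr2:201071901-201072000, and SDHA, at chr5:218220-218319, both on the plus strand, encode subunits of complexes I and II. The first 3 had log2 fold changes among the highest described below and SDHA one of the lowest.
ATP5G1: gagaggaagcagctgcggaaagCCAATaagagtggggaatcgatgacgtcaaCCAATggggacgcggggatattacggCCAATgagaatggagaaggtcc
ATP5J: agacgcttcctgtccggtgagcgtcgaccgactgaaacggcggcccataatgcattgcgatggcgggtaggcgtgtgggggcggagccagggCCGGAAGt
NDUFB3: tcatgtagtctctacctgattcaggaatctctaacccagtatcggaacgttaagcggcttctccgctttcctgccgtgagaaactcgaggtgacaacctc
SDHA: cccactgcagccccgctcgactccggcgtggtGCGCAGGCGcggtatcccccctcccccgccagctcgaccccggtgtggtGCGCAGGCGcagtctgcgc

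The window of ATP5G1 held 3 CCAAT boxes, that of ATP5J an ETS match and that of SDHA 2 NRF1 matches, while that of NDUFB3 held none of these letters. The same windows of NDUFB1 and COX4I1, which are not printed, held none either. Over the full windows, NRF1 letters were found in 19 of the 68 member promoters (27.9%) and in 7.68% of the 27305 promoters of all symbols. ETS letters were found in 27.9% of member promoters and 10.5% of all. YY1 letters were found in 17.6% and 3.03%, and the CCAAT box in 33.8% and 35.4%. The promoters of mitochondrial ribosomal proteins, another nuclear-encoded mitochondrial set, held the NRF1 letters in 16.4%, the ETS letters in 40.3% and the YY1 letters in 31.3%. None of these sets of letters contains another, and a match of letters is a description and no measured binding.

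In the control group the members were measured at very different levels. Per kilobase of transcript, the most abundant was ATP5B, the catalytic β subunit of ATP synthase, at 937.1 CPM per kb, where CPM are counts scaled to the TMM-adjusted library total. COX4I1, the ubiquitous subunit 4 of cytochrome c oxidase, followed at 473 CPM per kb, cytochrome c1 (CYC1) at 445, NDUFB9 at 429.8 and SDHA at 365. At the other end, ATP5S was at 3.83 CPM per kb, NDUFV3 at 10.81 and NDUFA5 at 12.02. Of the 87 members, 80 had enough reads to be tested.

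The 7 untested members show the isoform choice of these cells. Complex IV has subunits with ubiquitous and tissue-restricted forms. The forms known from lung (COX4I2), from heart and skeletal muscle (COX6A2, COX7A1) and from testis (COX6B2, COX7B2, COX8C) had at most 1 count in any library, and COX4I2 and COX7B2 had none. The floor of 3 counts, which covers counting error only, corresponded to 0.214 to 0.263 CPM. Their counterparts COX4I1, COX6A1, COX7A2, COX6B1, COX7B and COX8A had between 103 and 403 CPM in the 6 libraries. ATP5L2 had 4 to 7 counts. The choice of isoforms was the same in both groups within what this depth can show.

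The members' shares of all counts give their level in each library without scaling. The 87 members together took 1.24%, 1.18% and 1.13% of counts in Control-1 to Control-3 and 1.16%, 1.41% and 1.29% in CLs-1 to CLs-3. The control mean was 1.19% ± 0.0525 and the CLs mean 1.29% ± 0.125 (SD, n = 3 each), with CLs-2 and CLs-3 above every control sample and CLs-1 within the range of the control samples. Complex V took the largest share, 0.406% ± 0.0261 in the control group and 0.445% ± 0.0215 in the CLs-treated group. Complex I took 0.340% ± 0.0112 and 0.378% ± 0.0494. The shares were 0.180% ± 0.00913 and 0.192% ± 0.0182 for complex III, and 0.164% ± 0.00535 and 0.177% ± 0.0283 for complex IV. Complex II took 0.0972% ± 0.00465 in the control group and 0.0954% ± 0.0121 in the CLs-treated group. The ranges of the 2 groups overlapped in all 5 complexes.

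**Figure D1:**
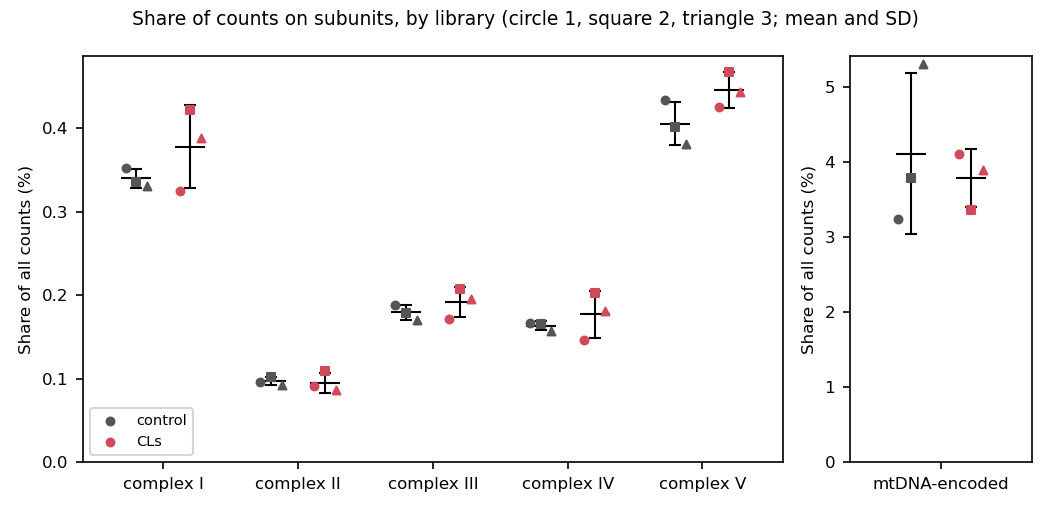
Share of all counts (%) on the subunits of each complex (left) and on the 13 subunits encoded by mitochondrial DNA (right), for the 3 control and 3 CLs libraries (points), with mean and SD (bars). The groups overlap in every complex, CLs-2 is the highest library in complexes I to V, and Control-3 is the highest for the mtDNA-encoded subunits, at 5.31%.

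No subunit passed the criteria in either direction. Among the 80 tested members, 0 were called higher, against 0.0133% of all tested genes, and 0 were called lower, against 0.0731%. The smallest adjusted p-value by edgeR's quasi-likelihood test was 0.637. With the threshold set on the unadjusted p-value, at 0.05, 6 members (7.50%) were higher in the CLs-treated group, against 2.19% of all genes, and 0 lower, against 3.62%. In 18 members (22.5%) the 3 CLs samples lay above all 3 control samples, against 5.34% of all genes, and in 0 members they lay below, against 6.18%. The median log2 fold change of the 80 members was 0.129, against 0.0102 over all tested genes, and 69 of them (86.2%) had a value above 0, against 52.1% of all genes. The values ranged from -0.13 to 0.46, so no member reached a fold change of 1.5. With DESeq2's Wald test as the alternative, 0 members passed the criteria and 6 were higher at an unadjusted p-value under 0.05, against 1.75% of all genes.

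These values changed with the library left out. Without CLs-1, 18 members had an unadjusted p-value under 0.05 and were higher, against 3.55% of all genes, the median was 0.235, and 79 of the 80 were above 0, SDHA being the exception. Without CLs-2, 0 members had an unadjusted p-value under 0.05, against 1.63% of all genes higher, and the median was 0.0618 with 52 members above 0. Without Control-2 there were 2 such members, against 1.56% of all genes higher, and without Control-3 there was 1, against 2.66%. The count stayed at 6 without Control-1, against 2% of all genes higher, and was 5 without CLs-3, against 2.56%. Each of these fits also has fewer samples, and the part of this in the counts was not tested. No member passed the adjusted criteria in any of these fits.

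**Figure D2:**
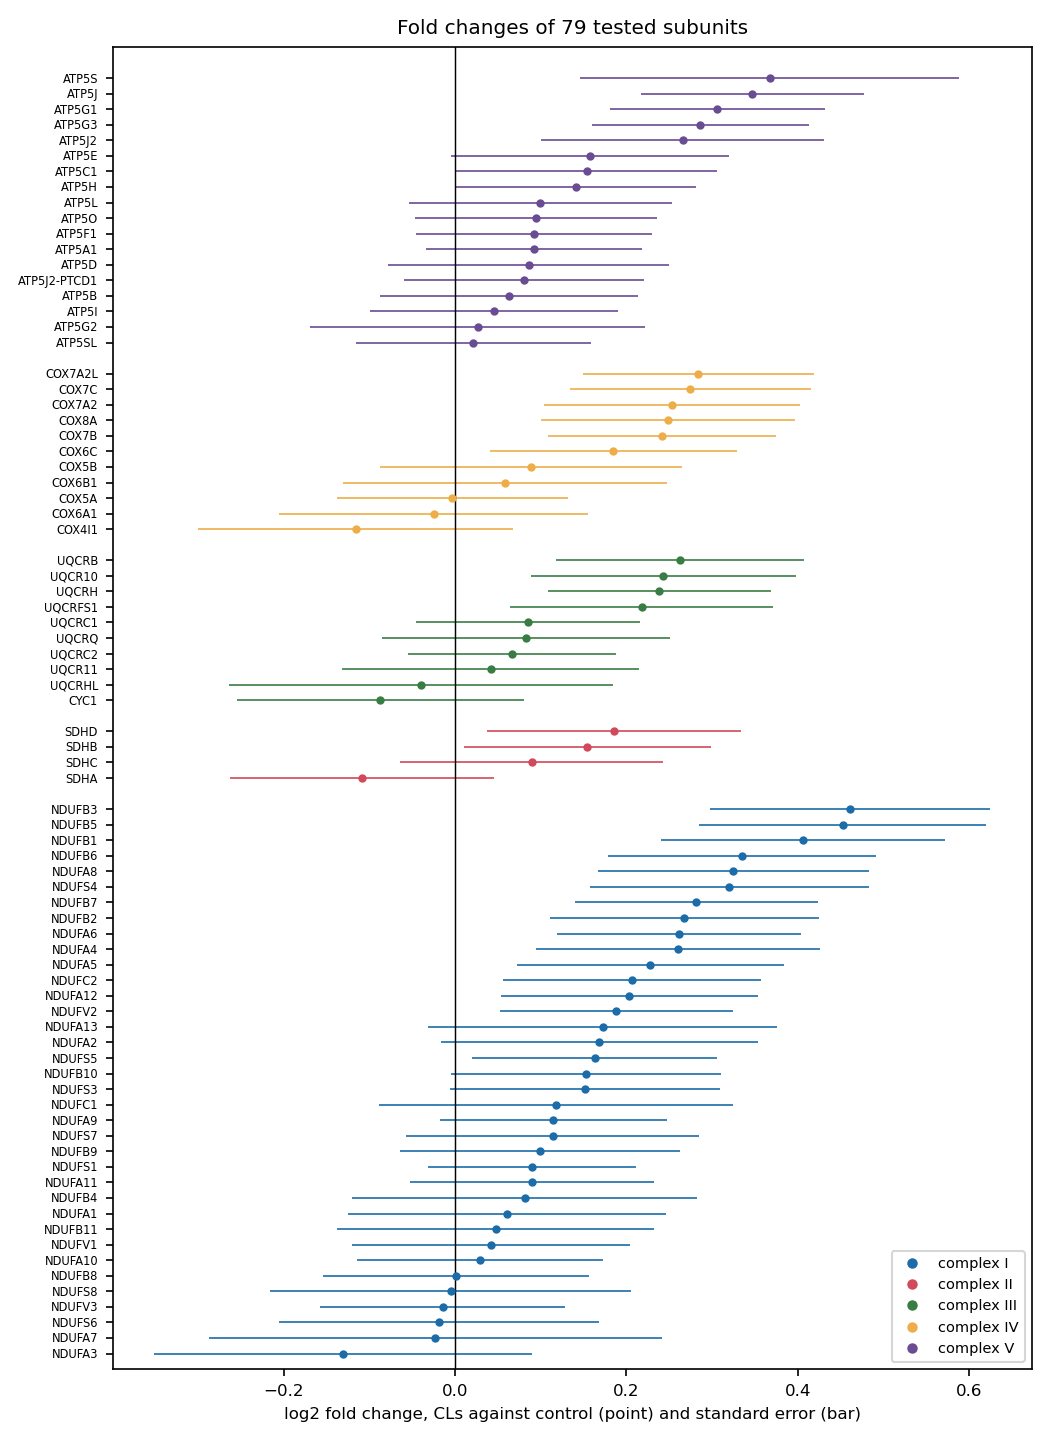
Log2 fold change of 79 of the 80 tested subunits, CLs-treated against control (points), with the standard error (bars), grouped by complex. Most points lie to the right of 0 and within 0.46 of it, and the highest are NDUFB3, NDUFB5 and NDUFB1 of complex I.

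Complex I, which oxidizes NADH, had 37 tested subunits, a median log2 fold change of 0.151 and 32 values above 0. Without CLs-1 the median was 0.25 with 37 above 0, without CLs-2 it was 0.0661 with 23 above 0, and without Control-3 it was 0.0989. The highest values came from the NDUFB group, accessory subunits of the membrane arm, with a median of 0.268 and 11 of 11 above 0. NDUFB8 among them was at 0.00053, and 10 of 11 were above 0 with RLE scaling or DESeq2. The median of the group was 0.159 with 8 of 11 above 0 without CLs-2, and 9 of 11 were above 0 with the offset for GC content and length described below. NDUFB3 had 30.9, 30.3 and 23.6 CPM in Control-1 to Control-3 and 37.8, 44.2 and 34.7 CPM in CLs-1 to CLs-3. Its log2 fold change was 0.46 (standard error 0.16, unadjusted p = 0.0166, adjusted p = 0.637), and all CLs samples lay above all control samples.

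NDUFB5 had 37.0, 36.4 and 28.6 CPM in the control samples and 50.26, 51.08 and 38.02 CPM in the CLs samples. The log2 fold change was 0.45 (standard error 0.17, unadjusted p = 0.0203). The groups did not overlap, CLs-3 lying just above Control-1. NDUFB1 had 18.8, 16.0 and 20.3 CPM against 21.5, 26.0 and 25.7 CPM, and differed by 0.41 on the log2 scale (standard error 0.17, unadjusted p = 0.0322). Its lowest CLs sample, CLs-1, lay just above its highest control sample, Control-3. An exact two-sided permutation test of 3 samples against 3 cannot go below p = 0.10, the value all such non-overlapping members had.

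The core subunits of the peripheral arm, which carry the flavin and the iron-sulfur clusters or frame the quinone site, had values as follows. NDUFV1, which binds NADH and the flavin, was at 0.04 (standard error 0.16) and its partner NDUFV2 at 0.19 on the log2 scale. Without CLs-1 NDUFV1 was at 0.20 and NDUFV2 at 0.18. NDUFS1, the largest core subunit, had 159.5, 161.0 and 163.0 CPM in the control samples and 182.8, 165.4 and 166.3 CPM in the CLs samples. Its groups did not overlap, although its log2 fold change was only 0.09 (standard error 0.12). NDUFS3 and NDUFS7 were at 0.15 and 0.11, and NDUFS8 at -0.01. Without CLs-1 they were at 0.27, 0.26 and 0.24. NDUFB9, the complex I member with the most counts, was at 0.10, and at 0.24 without CLs-1. The lowest value of all members was that of NDUFA3, an accessory subunit, at -0.13 (standard error 0.22), with 31.3, 33.6 and 41.3 CPM against 21.2, 37.7 and 38.3 CPM. CLs-1 alone was low, and without it the value was 0.10.

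Complex II, succinate dehydrogenase, also works in the TCA cycle and has no subunit encoded by mitochondrial DNA. The median of its 4 subunits was 0.122, with 3 above 0. It was 0.114 without CLs-1, 0.0624 without CLs-2, 0.0459 without Control-3 and 0.199 without Control-1. SDHA, the flavoprotein that oxidizes succinate, had 749.3, 827.2 and 731.3 CPM in the control samples and 649.7, 854.5 and 635.8 CPM in the CLs samples. Its log2 fold change was -0.11 (standard error 0.15, 95% confidence interval -0.45 to 0.23), and CLs-1 and CLs-3 lay below all control samples while CLs-2 lay above them. It is the only member whose value stayed below 0 when CLs-1 was left out, at -0.05. The iron-sulfur subunit SDHB was at 0.15 and the membrane anchors SDHC and SDHD at 0.09 and 0.19, with overlapping groups in all 3. SDHA has expressed pseudogenes, and how reads matching several places were counted is not stated.

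In complex III, which passes electrons from coenzyme Q to cytochrome c, the median was 0.0838 and 8 of 10 values were above 0. Without CLs-1 it was 0.185 with 10 above 0, without CLs-2 it was 0.0425 with 6 above 0, and without Control-1 it was 0.134. The redox subunits had values on either side of 0. CYC1 had 594.1, 547.9 and 512.5 CPM in the control samples and 395.7, 578.6 and 583.4 CPM in the CLs samples, which put it at -0.09 (standard error 0.17). CLs-1 was the lowest of the 6 libraries, and without it the value was 0.08. The Rieske iron-sulfur protein UQCRFS1 was at 0.22 (standard error 0.15). The core proteins UQCRC1 and UQCRC2 were at 0.09 and 0.07. UQCRB, UQCR10 and the hinge protein UQCRH had the smallest unadjusted p-values of the complex, with log2 fold changes of 0.26, 0.24 and 0.24. Only in UQCRH did the groups not overlap. Its near copy UQCRHL, with which it can share reads, was at -0.04, and at 0.19 without CLs-1.

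In complex IV, cytochrome c oxidase, 11 subunits were tested, with a median of 0.185 and 8 above 0. The median was 0.273 with 11 above 0 without CLs-1, 0.102 with 6 above 0 without CLs-2, and 0.0767 with the offset for GC content and length. COX4I1 had 376.4, 390.8 and 359.5 CPM in the control samples and 243.5, 393.4 and 402.9 CPM in the CLs samples. Its log2 fold change was -0.12 (standard error 0.18, 95% confidence interval -0.52 to 0.29), CLs-1 was far below the rest, and the value was 0.08 without it. COX5A, COX5B, COX6A1 and COX6B1 were at -0.0032, 0.09, -0.03 and 0.06, and without CLs-1 at 0.04, 0.26, 0.16 and 0.27. The values of the small membrane subunits COX7A2, COX7B, COX7C and COX8A lay between 0.24 and 0.27, and without CLs-1 between 0.27 and 0.37.

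COX7C was the highest of these small subunits when no library was left out. It had 152.3, 140.0 and 145.0 CPM in the control samples and 154.7, 205.4 and 169.0 CPM in the CLs samples. Its standard error was 0.14 and its unadjusted p = 0.0766 by edgeR's quasi-likelihood test. COX7A2L, which helps complexes III and IV associate, had 75.1, 66.3 and 73.1 CPM against 88.3, 95.6 and 77.2 CPM. The difference on the log2 scale was 0.28 (standard error 0.14, unadjusted p = 0.0591). In COX7A2L, COX7B, COX7C and COX8A the CLs samples lay above the control samples, COX7A2 overlapping.

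Complex V, ATP synthase, had 18 tested members, all with values above 0 and a median of 0.097. All 18 were also above 0 with RLE scaling, upper-quartile scaling, library size only and DESeq2, and 14 were without CLs-2. The median was 0.218 without CLs-1, 0.061 without CLs-2, 0.157 without Control-1 and 0.0526 with the offset for GC content and length. The α and β subunits of the catalytic head had values below the median of the complex. ATP5B had 1926, 1721 and 1523 CPM in the control samples and 1651, 1919 and 1830 CPM in the CLs samples, and its value was 0.06 (standard error 0.15). The α subunit ATP5A1 had 650.1, 643.4 and 615.4 CPM against 697.4, 682.8 and 654.0 CPM, at 0.09 (standard error 0.13). Its groups did not overlap, CLs-3 lying just above Control-1. The γ subunit ATP5C1, the central stalk, was at 0.15.

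The largest values with an unadjusted p-value under 0.05 in complex V belonged to a stalk subunit and to the proton-carrying ring. ATP5J, coupling factor 6 of the peripheral stalk, had 56.97, 52.16 and 50.34 CPM in the control samples and 62.7, 72.8 and 67.4 CPM in the CLs samples. Its log2 fold change was 0.35 (standard error 0.13, unadjusted p = 0.0219, adjusted p = 0.69). The c ring is made of 1 protein encoded by ATP5G1, ATP5G2 and ATP5G3, whose mature products are the same. ATP5G1 had 193.6, 174.2 and 169.7 CPM against 214.5, 232.2 and 217.6 CPM, at 0.31 (standard error 0.13, unadjusted p = 0.0326). ATP5G3 had 217.6, 204.6 and 192.1 CPM against 261.5, 255.5 and 232.0 CPM, at 0.29 (standard error 0.13, unadjusted p = 0.0449).

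In both genes every CLs sample exceeded every control sample. In ATP5G2 the groups overlapped, with 234.7, 193.0 and 238.0 CPM against 156.7, 246.2 and 275.3 CPM, and the value was 0.03 (standard error 0.20). Its CLs-1 was the lowest and its CLs-3 the highest library. Without CLs-1 its value was 0.23, beside 0.33 for ATP5G1 and 0.25 for ATP5G3. The difference between the 3 genes was not tested. ATP5S, with only 5.06 to 8.38 CPM, had a value of 0.37 and a standard error of 0.22.

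**Figure D3:**
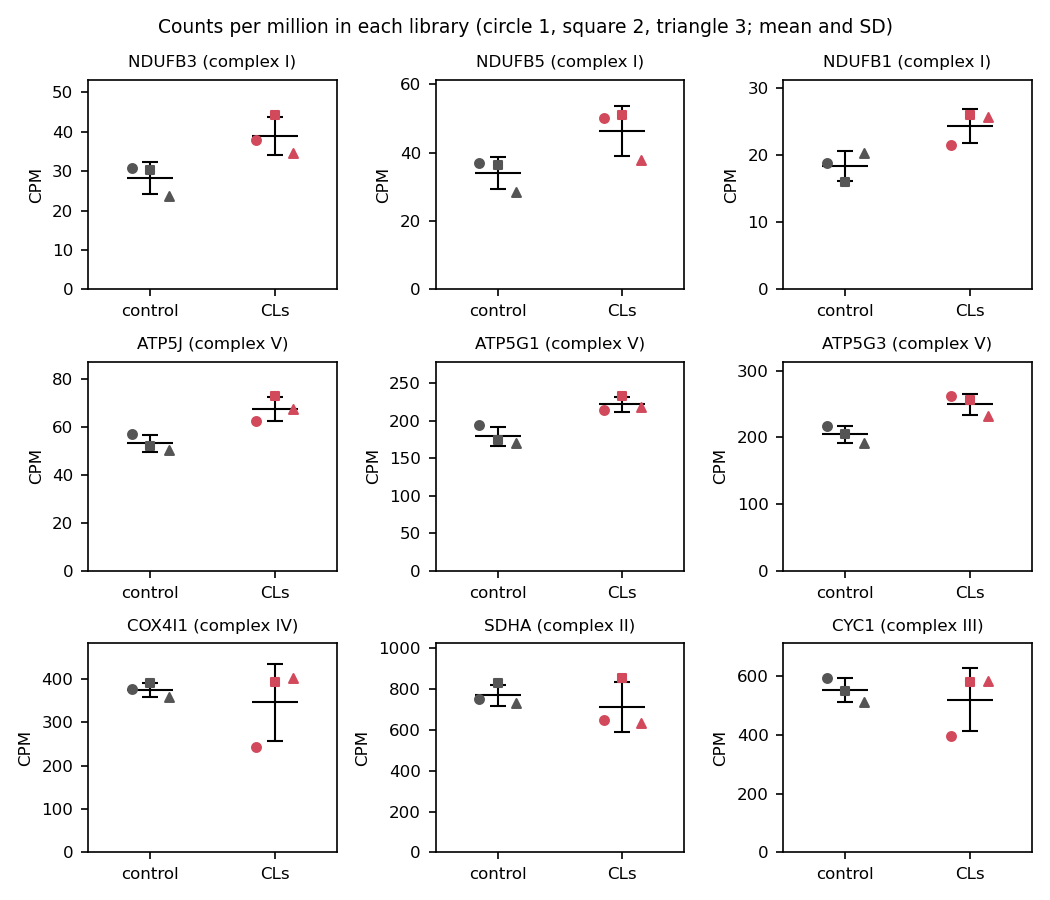
CPM in each library (circle, square and triangle for samples 1, 2 and 3) with mean and SD, for the 6 members with an unadjusted p-value under 0.05 and for COX4I1, SDHA and CYC1. In the first 6 the CLs samples lie above the control samples, and COX4I1 and CYC1 show CLs-1 well below the other 5 libraries.

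By role, 21 members were listed as catalytic or core. The list included COX4I1, COX5A and COX5B, although the catalytic center of complex IV is encoded by mitochondrial DNA. It left out the c ring genes ATP5G1, ATP5G2 and ATP5G3. The 21 listed members had a median log2 fold change of 0.0893, with 16 above 0 and 0 at an unadjusted p-value under 0.05. The 59 other tested members had a median of 0.163, with 53 above 0 and all 6 of the members at an unadjusted p-value under 0.05. The medians of these 2 groups were 0.136 and 0.251 without CLs-1 and 0.037 and 0.0748 without CLs-2. Over all tested genes, 52.1% lay above 0 and 2.19% were higher at an unadjusted p-value under 0.05. With 21 members, a count of 0 cannot be told apart from that share. No test was made of the difference between the 2 role groups.

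The members' levels differed between libraries. Relative to the control mean on the log2(CPM + 0.5) scale, the median of the 80 members was 0.083, -0.0085 and -0.071 in Control-1 to Control-3. Among the treated samples it was -0.056 in CLs-1, and CLs-2 and CLs-3 had 0.303 and 0.135. The corresponding medians of all tested genes lay between 0.00038 and 0.0121. CLs-2 was the highest library for 59 of 80 members (73.8%), against 18.7% of all genes. Control-3 was the lowest for 34 members (42.5%), against 22.02%, and CLs-1 for 33 (41.2%), against 23.0%. CLs-2 was thus the high end and Control-3 or CLs-1 the low end for most members.

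**Figure D4:**
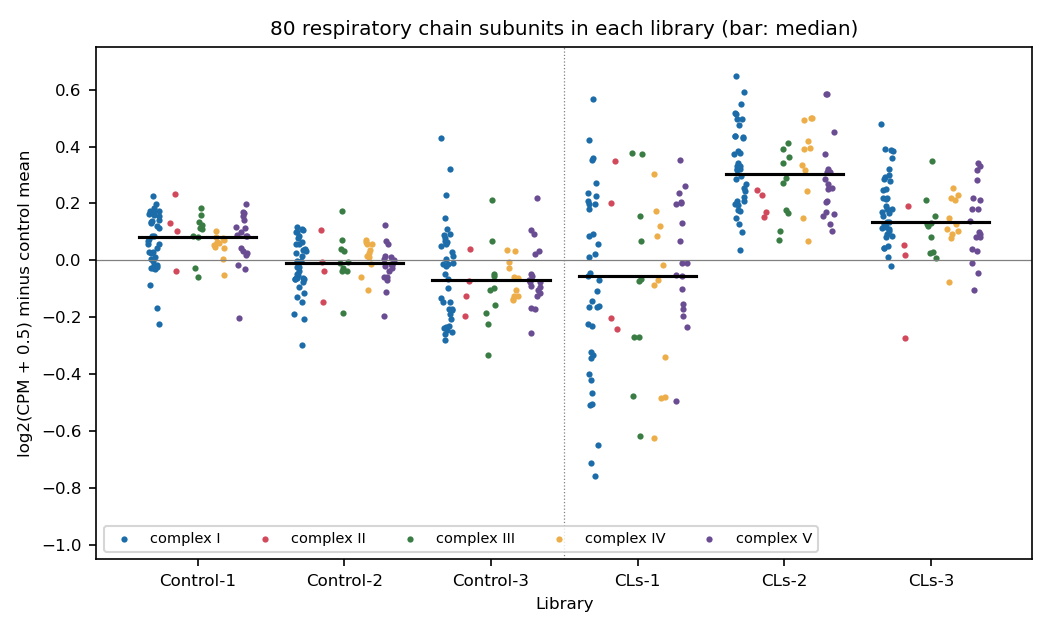
Log2(CPM + 0.5) of each of the 80 tested subunits minus its control mean, in each library, colored by complex, with the median as a bar. The CLs-2 median, 0.303, is the highest, the CLs-1 median is -0.056, and the members spread most widely in CLs-1.

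The split in CLs-1 went with base composition and with transcript length. The 33 members lowest in CLs-1 had a median transcript GC content of 53.9%, and the 8 highest in CLs-1, among them NDUFS1, NDUFA5, ATP5A1 and ATP5G3, one of 44.7%. The median transcript lengths of these 2 sets were 753 and 1810 bases. When the members were divided at their median GC content of 50.4%, the 40 GC-rich ones had median deviations from the control mean of -0.228, 0.252 and 0.129 in the treated samples, in the order CLs-1 to CLs-3. The 40 GC-poor ones had 0.165, 0.326 and 0.155. In CLs-1 the GC-rich and the GC-poor members lay on opposite sides of the control mean, while in CLs-2 and CLs-3 both lay above it. The part of base composition or length in the difference between the groups was not tested beyond the offsets given next.

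Over the 80 members, Spearman's correlation between GC content and the difference of CLs-1 from the mean of CLs-2 and CLs-3 was -0.54, and over the 13918 tested genes with a transcript it was -0.58. With the log2 fold change between the groups it was -0.54 over the members and -0.24 over all these genes. For transcript length, the correlations with the CLs-1 difference were 0.223 over the members and 0.365 over all these genes. Those of length with the log2 fold change were -0.202 and -0.18. The points share the libraries and genes are not independent. GC-rich members had a median log2 fold change of 0.0618 with 30 of 40 above 0, and GC-poor members one of 0.205 with 39 of 40 above 0. The members also have short transcripts, with a median of 763.5 bases against 2283 bases over all tested genes. An offset for GC content in each library, added after the data were seen, gave a median of 0.132 and 9 members higher at an unadjusted p-value under 0.05, against 2.69% of all genes. An offset for GC content and length gave 0.0841 and 7, against 2.77%. With the GC offset the log2 fold changes of NDUFB3, NDUFB1 and ATP5G1 were 0.40, 0.40 and 0.34, and those of COX4I1, SDHA and CYC1 were -0.10, -0.07 and -0.05.

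**Figure D5:**
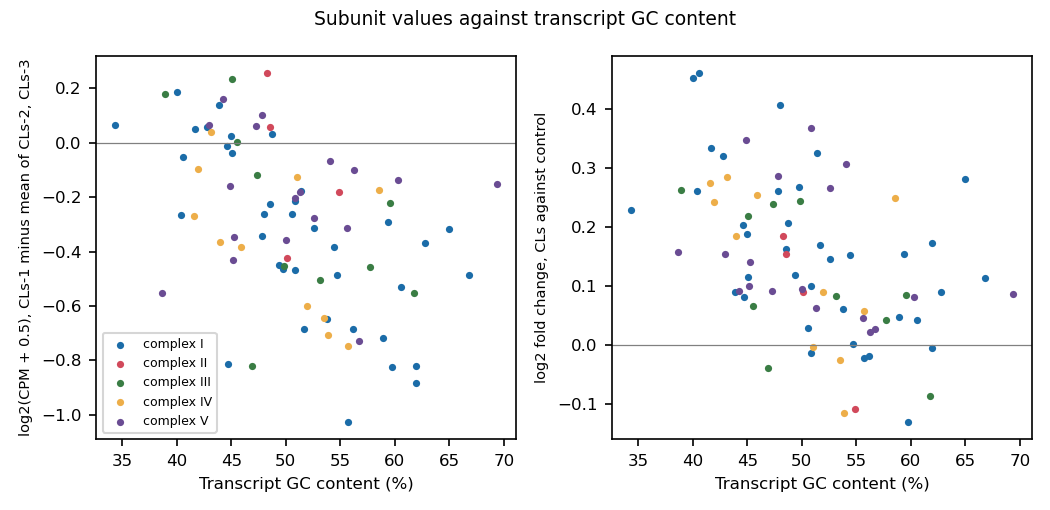
Transcript GC content (%) of the 80 tested subunits against log2(CPM + 0.5) in CLs-1 minus the mean of CLs-2 and CLs-3 (left) and against the log2 fold change between the groups (right). Spearman's correlations are -0.54 in both panels, and the 11 members below 0 on the right have GC contents from 46.93% to 61.98%.

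The other subunits of the same complexes are encoded by mitochondrial DNA and transcribed inside the organelle. They took 3.24%, 3.79% and 5.31% of all counts in the control samples and 4.11%, 3.36% and 3.89% in the CLs samples. The group means were 4.11% ± 1.07 and 3.79% ± 0.382 (SD, n = 3), with Control-3 the highest and the groups overlapping. Of the 13 genes, 0 passed the criteria, 2 had a log2 fold change above 0, and the median was -0.114. The smallest unadjusted p-values were those of the complex I genes ND4L and ND2, with log2 fold changes of -0.39 and -0.30. Without Control-3 the median was 0.0632 and 9 of 13 lay above 0, and without CLs-2 it was -0.0024 with 6 above 0. It was -0.273 without CLs-1, -0.223 without Control-1, -0.166 with the GC offset and -0.225 with the offset for GC content and length, where 0 of 13 lay above 0. Control-3 was thus the library with the most reads on mtDNA-encoded subunits and, for 34 members, the one with the fewest reads on nuclear-encoded ones. Nuclear copies of mitochondrial DNA can take part of these reads.

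Factors that build the complexes were set beside the subunits. Of 51 assembly factors, 0 passed the criteria, 41 had a log2 fold change above 0, and the median was 0.112. It was 0.0535 without Control-3 and 0.0715 without CLs-2. CMC1, a complex IV factor, had 9.64, 10.3 and 8.75 CPM in the control samples and 12.5, 15.5 and 13.1 CPM in the CLs samples. Its log2 fold change was 0.52 (standard error 0.18, unadjusted p = 0.0171). ATPAF1, which chaperones the β subunit of ATP synthase, was at 0.35 (standard error 0.16, unadjusted p = 0.0445), and its groups overlapped, CLs-3 lying just below Control-2. The other factors named by the rule were TMEM126B and NDUFAF2 for complex I, at 0.29 and 0.24, SDHAF2 and C6orf57 for complex II, at 0.11 and 0.30, LYRM7 and MNF1 for complex III, at 0.28 and 0.24, COA6 for complex IV, at 0.37, and TMEM70 for complex V, at 0.12.

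Of 76 mitochondrial ribosomal proteins, which translate the mtDNA-encoded subunits, 0 passed, 58 were above 0 and the median was 0.105. That median was 0.0199 without CLs-2, 0.0294 without Control-3 and 0.192 without Control-1. MRPS33 and MRPS18C, with log2 fold changes of 0.45 and 0.48, had the smallest p-values. Coenzyme Q synthesis supplies the carrier between complexes I, II and III. All 13 of its genes were above 0 with a median of 0.15, against 11 of 13 without CLs-1 and 10 of 13 without CLs-2. COQ3 and COQ2 were at 0.43 and 0.29. Among 12 tested carriers and partners, 11 were above 0 with a median of 0.158. Without Control-3, 8 were above 0, and 9 were without CLs-2 or without CLs-3. The smallest unadjusted p-values were those of the electron transfer flavoprotein subunits ETFB and ETFA, at 0.48 and 0.32. The groups overlapped in both. ETFB had 80.2, 98.0 and 104.8 CPM in the control samples and 87.2, 148 and 158.6 CPM in the CLs samples.

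The TCA cycle, which feeds the chain with NADH, had 7 of 13 genes above 0 and a median of 0.00435 (-0.0764 without CLs-2), and OGDH and SUCLA2 were at -0.28 and 0.25. The regulators of mitochondrial biogenesis had 10 of 15 above 0 and a median of 0.0616, which was -0.007 without CLs-1 and 0.0109 without Control-2. PPARGC1A, the coactivator PGC-1α, had 3.82, 5.96 and 6.52 CPM in the control samples and 8.93, 7.43 and 6.92 CPM in the CLs samples, at 0.52 on the log2 scale (standard error 0.25, unadjusted p = 0.0612). Its relative PPRC1 was at -0.22 (standard error 0.12), with its CLs samples below its control samples. None of the genes on these lists passed the criteria.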

How the data were processed

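The authors mapped single-end Ion Proton reads with MapSplice and deposited whole-number counts per gene symbol without normalization. The submitters' processing notes name HTSeq 0.6.1, hg19 and GRCh37. The strand setting and the treatment of reads matching several places are not given in the sources used here. All 6 columns were used, and no columns were identical.

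Members and gene lists were chosen with earlier results of these data known. Counts were compared with edgeR 4.0.16 in R 4.3.3 (filterByExpr, TMM scaling, quasi-likelihood F test on condition alone, Benjamini-Hochberg adjustment over 15047 genes). The authors' EBSeq was not run. Standard errors were derived from the F statistic. CPM are relative to TMM-scaled totals, and deviations used log2(CPM + 0.5). The script was tested on simulated data. Transcript length and GC content came from GENCODE release 29, matched by symbol for 13918 of the 15047 tested genes, and promoters from RefSeq (GRCh38.p14). The file gives symbols and no coordinates.

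Genes were named by rule. In each complex these were the 3 members with the smallest p-value, the most abundant, and those listed as catalytic or core or as paired isoforms. Named too were the 5 highest and 5 lowest log2 fold changes, untested members, and 2 genes per other list. NDUFA5, NDUFV3, NDUFB8, NDUFA4 and ATP5SL were named after their values were seen. Single values of 1 member are not reported here. The 126 pseudogene symbols dropped by the rule took 0.0242% to 0.0330% of counts. Alternatives were other scalings and filters, DESeq2 1.42.0, the replicate block and each library left out.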

Additional observations from a re-analysis of the deposited data

How the results depend on the processing

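No member was called in any fit, and the smallest adjusted p-value over the members lay between 0.266 and 1 across the fits. The number of members higher at an unadjusted p-value under 0.05 was 11 with library size only (2.81% of all genes), and 0 (without CLs-2) to 18 (without CLs-1) when 1 library was left out. The median log2 fold change of complex V was 0.061 to 0.218 and that of the TCA cycle -0.0764 to 0.0655 when 1 library was left out. The groups share replicate numbers, but the main fit did not take these as pairs. The correlations of deviations from the group means were 0.111, 0.0987 and 0.305 between same-numbered samples. Between differently numbered samples they were lower, from -0.201 to 0.0783. Whether the samples were paired was not tested. In a fit with the replicate block, 8 members were higher at an unadjusted p-value under 0.05, against 3.10% of all genes (2.19% without the block), the median was 0.13, and over all genes 12 were called higher and 56 lower, against 2 and 11. Without a low-count filter these were 58 and 113, and with DESeq2 16 and 91. The sign of some single log2 fold changes near 0 changed. ATP5G2 was at -0.0051 with the block and -0.022 with the GC and length offset, and UQCRC2 at -0.014 with that offset. COX5A was at 0.0068 with upper-quartile scaling, 0.021 with library size only, 0.0023 without a filter and 0.010 with the GC offset. NDUFS8 was at 0.0063, 0.013 and 0.025 with upper-quartile scaling, library size only and the GC offset. With 1 library left out, the ranges were -0.018 to 0.15 for ATP5B, -0.14 to 0.23 for ATP5G2, -0.24 to 0.084 for COX4I1, -0.084 to 0.039 for COX5A, -0.089 to 0.26 for COX5B, -0.18 to 0.16 for COX6A1, -0.091 to 0.27 for COX6B1, -0.18 to 0.075 for CYC1, -0.27 to 0.10 for NDUFA3, -0.022 to 0.24 for NDUFB9, -0.041 to 0.26 for NDUFS7, -0.17 to 0.24 for NDUFS8, -0.097 to 0.20 for NDUFV1 and -0.22 to 0.19 for UQCRHL. The cause was not tested.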
